A study of Drosophila melanogaster with 36 samples.

Results

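The aminoacyl-tRNA synthetases are the enzymes that load each transfer RNA with its amino acid. Members were taken by gene symbol, as single genes named by an amino acid abbreviation (or a pair of them) followed by RS, with the ending -m for the mitochondrial enzymes. This gave 30 genes of the 11982 tested, 16 cytosolic (AlaRS, ArgRS, AsnRS, CysRS, GlnRS, GluProRS, GlyRS, HisRS, IleRS, LeuRS, LysRS, SerRS, ThrRS, TrpRS, TyrRS and ValRS) and 14 mitochondrial (ArgRS-m, AsnRS-m, AspRS-m, CysRS-m, GluRS-m, IleRS-m, LeuRS-m, MetRS-m, PheRS-m, ProRS-m, SerRS-m, TrpRS-m, TyrRS-m and ValRS-m). No filter on low values was applied, so all 30 were tested. AlaRS-m, AspRS and MetRS carry symbols of the same form and were not analysed here. Expression was measured on Affymetrix Drosophila Genome 2.0 arrays in Kc167 cells, a Drosophila melanogaster line of embryonic origin grown at 22 °C. Cells were plated, and the medium was later replaced by fresh medium alone (control) or with methyl methanesulfonate (MMS), an agent that methylates DNA and other nucleophiles in the cell, at 40 µg/mL. Control cells were harvested at 0, 1, 8, 24 and 72 h and MMS cells at 1, 8, 24 and 72 h, with 4 arrays in each of the 9 groups. All groups were of 1 cell line with no genetic change, so the values describe that line.

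Each synthetase activates its amino acid with ATP and joins it to the matching tRNA, and so sets the meaning of the codons read by the ribosome. Animal cells keep enzymes for the cytosol and others, encoded in the nucleus and imported, for the few proteins made inside mitochondria. Some genes can serve both places, and cytosolic here means only a symbol without the ending -m. Among the members GlyRS, HisRS, LysRS and ThrRS, as well as AlaRS and GlnRS, had no counterpart with that ending. Transcripts of cytosolic synthetases are known targets of ATF4 (crc in flies), the transcription factor of the response to amino acid shortage. In many animals some synthetases also sit together in a multi-synthetase complex held by scaffold proteins.

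Values are log2 intensities normalised by RMA, and a difference of 1 is a 2-fold change. Changes are given with the SE of the fit (n = 4 in each group), and a gene was called at an adjusted p under 0.05 (limma, Benjamini-Hochberg over all 11982 genes). Arrays of 1 group correlated at 0.9825 to 0.9984. The 8 arrays of 8 h, control and MMS alike, stood apart from the other 28. The mean excess of 3′ over 5′ control probe sets was 1.42 to 1.67 on them and 0.50 to 0.72 elsewhere, and the 18S rRNA 5′ probe set read 10.56 to 11.33 against 3.44 to 6.65. Of the hemocyte (fly blood cell) markers, 12 of 15 lay above the median gene, as did 2 of 8 neuron, 0 of 6 muscle and 4 of 8 germline markers.

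After 1 h of MMS no synthetase passed the test, as no gene did among all tested (0% higher and 0% lower, limma). At an unadjusted p under 0.05, 5 of the 30 were lower and 0 higher, against 5.71% of all genes in either direction. After 8 h 1 member was higher and 8 were lower (8.85% and 11.5% of all genes). At 24 h 7 were higher and 2 lower (10.2% and 10%), and at 72 h 14 were higher and 0 lower (17% and 12.5%). Read by the probe set taken for each gene, no member reached a 2-fold change against control at any time. TrpRS passed it by another of its probe sets. In bulk RNA a lower share of cells with a transcript and less of it in each cell cannot be told apart. Median changes of the cytosolic genes were -0.15 at 8 h, 0.14 at 24 h and 0.21 at 72 h, and those of the mitochondrial genes -0.16, 0.04 and 0.33. Over all genes the medians were -0.02, -0.02 and -0.05, and over genes with a mean log2 of at least 5 they were -0.04, -0.04 and 0.05. In all, 4 cytosolic genes (AsnRS, CysRS, LeuRS and SerRS) and 2 mitochondrial genes (CysRS-m and IleRS-m) were called at none of these times.

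**Figure D1:**
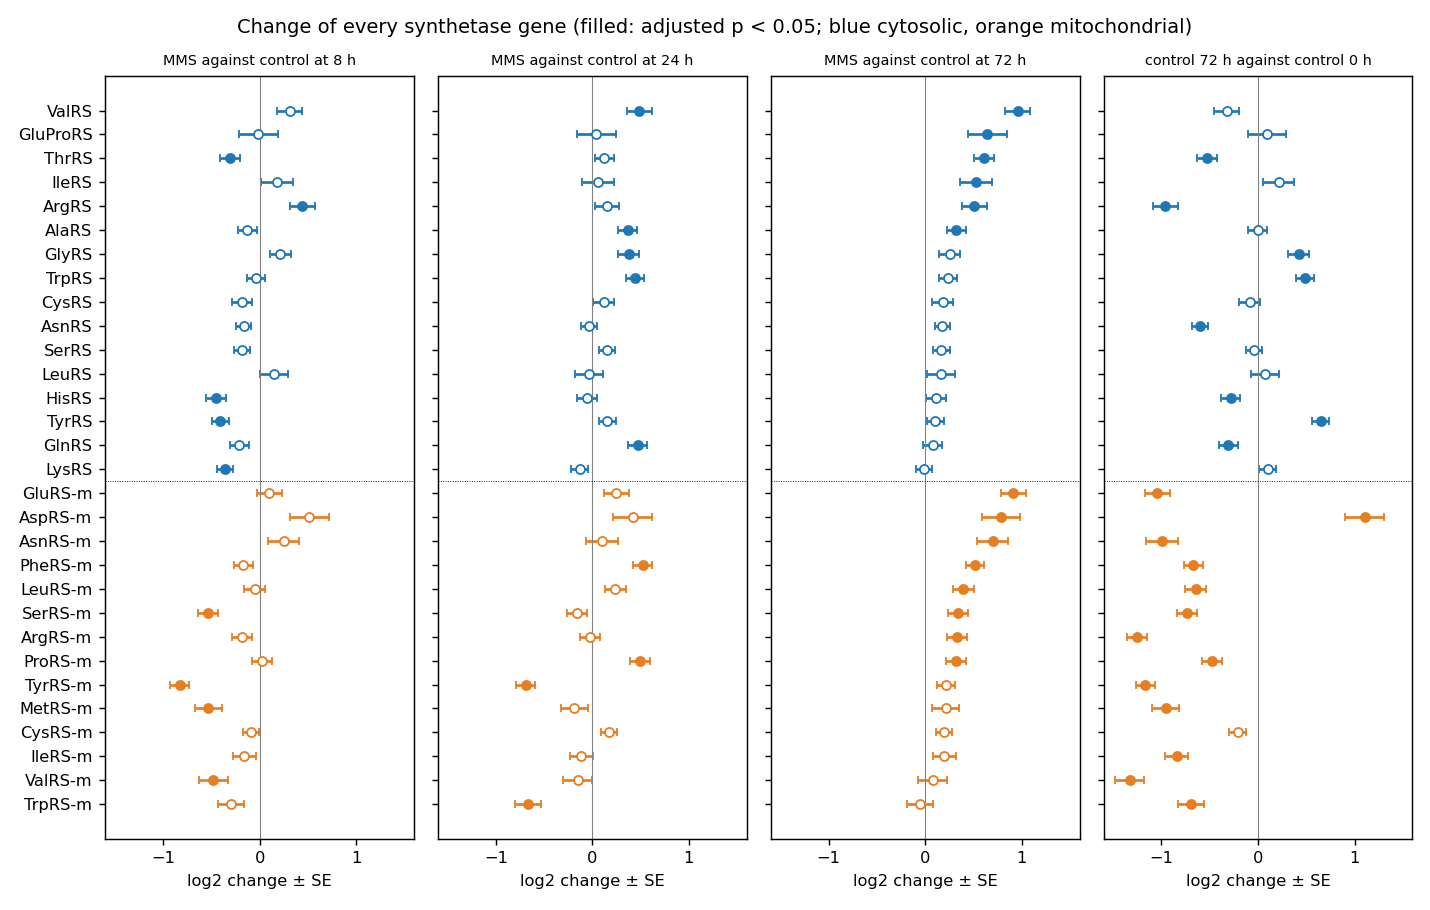
Log2 change ± SE (x axis) of each of the 30 synthetase genes (y axis) in 4 comparisons of 4 arrays with 4, cytosolic genes in blue above the dotted line and mitochondrial genes in orange below it, with filled points at an adjusted p under 0.05. At 72 h of MMS all 14 filled points lie right of 0, whereas 12 mitochondrial genes lie left of 0 and filled in untreated cells at 72 h against 0 h.

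At 8 h of MMS the mitochondrial tyrosine enzyme fell most. TyrRS-m (probe set 1636157_at) read 8.49, 8.33, 8.19 and 8.29 in the control arrays and 7.76, 7.38, 7.53 and 7.33 in the MMS arrays. All MMS arrays lay below all control arrays, a difference of -0.83 ± 0.10 (adjusted p = 1.51e-07). SerRS-m, the mitochondrial serine enzyme, read 8.46, 8.32, 8.17 and 8.22 in control and 7.80, 7.78, 7.66 and 7.81 with MMS, again without overlap (-0.53 ± 0.10, adjusted p = 0.000263). ValRS-m, for valine, read 7.42, 7.27, 6.96 and 7.31 in control and 7.21, 6.48, 6.55 and 6.79 with MMS. The first MMS array of ValRS-m lay inside the control range, and its change of -0.48 ± 0.15 (adjusted p = 0.0201) was no longer called without control replicate 1 or 4 or MMS replicate 2 or 3 (adjusted p up to 0.102). MetRS-m, for methionine, was also lower (-0.53 ± 0.14, adjusted p = 0.00585).

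The cytosolic genes lower at 8 h were HisRS, TyrRS, LysRS and ThrRS. HisRS, the histidine enzyme, read 11.20, 10.96, 10.65 and 11.02 in control and 10.77, 10.41, 10.49 and 10.35 with MMS. Control replicate 3 of HisRS fell below MMS replicate 1, and the mean difference was -0.45 ± 0.10 (adjusted p = 0.00111). TyrRS, the cytosolic tyrosine enzyme, read 10.32, 10.19, 9.99 and 10.20 in control and 10.04, 9.66, 9.76 and 9.61 with MMS (-0.41 ± 0.09, adjusted p = 0.000901), with the same pair of arrays crossing. ThrRS, for threonine, read 11.68, 11.47, 11.25 and 11.49 in control against 11.32, 11.12, 11.17 and 11.06, with overlapping groups and a change of -0.31 ± 0.10 (adjusted p = 0.0286). The call of ThrRS was lost when any of 6 of the 8 arrays was left out (adjusted p between 0.0542 and 0.146), all but control replicate 3 and MMS replicate 1. LysRS, for lysine, was 0.36 ± 0.08 below control (adjusted p = 0.00161). ArgRS, for arginine, was the 1 member higher at 8 h (0.44 ± 0.13, adjusted p = 0.0112).

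Groups of 4 arrays at 8 h did not overlap for 1 cytosolic gene in each direction and for 1 mitochondrial gene above and 4 below control. Over all genes 24.5% separated in either direction, so that the share of members was near that of all genes. Both treatments at 8 h had a high 18S signal and 3′ excess, the latter 1.42 to 1.66 in control and 1.58 to 1.67 with MMS. The part of RNA quality in these differences was not tested.

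At 24 h of MMS 5 cytosolic genes and 2 mitochondrial genes were higher. PheRS-m, a one-chain mitochondrial enzyme for phenylalanine, read 9.53, 9.55, 9.78 and 9.75 in control and 10.15, 10.11, 10.31 and 10.12 with MMS. The groups of PheRS-m were clearly apart, with a rise of 0.52 ± 0.10 (adjusted p = 8.85e-05). ProRS-m, for proline, read 7.88, 8.19, 8.36 and 8.16 in control and 8.70, 8.53, 8.71 and 8.63 with MMS, also without overlap (0.49 ± 0.10, adjusted p = 0.000323).

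Among the cytosolic genes GlnRS, for glutamine, read 9.77, 9.76, 9.67 and 9.61 in control and 10.35, 10.20, 10.09 and 10.05 with MMS at 24 h, all of them above control (0.47 ± 0.10, adjusted p = 0.000502). ValRS, the cytosolic valine enzyme (probe set 1638259_s_at), read 10.50, 10.27, 10.01 and 10.02 in control and 10.77, 10.85, 10.63 and 10.49 with MMS. Here the highest control array of ValRS stood just above the lowest MMS array, and the rise was 0.49 ± 0.13 (adjusted p = 0.00553). TrpRS, for tryptophan, rose by 0.44 ± 0.09 (adjusted p = 0.000452), AlaRS, for alanine, by 0.37 ± 0.10 (adjusted p = 0.00583) and GlyRS, for glycine, by 0.38 ± 0.11 (adjusted p = 0.00882).

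Both members lower at 24 h were mitochondrial. Of the 14 mitochondrial genes 2 were higher and 2 lower, or 14.3% each way, near the 10.2% and 10% of all genes. TyrRS-m read 7.86, 8.01, 8.19 and 7.95 in control and 7.32, 7.31, 7.29 and 7.32 with MMS, a difference of -0.69 ± 0.10 (adjusted p = 1.08e-06). The MMS arrays of TyrRS-m were nearly equal and all lay below control. TrpRS-m, the mitochondrial tryptophan enzyme, read 8.26, 8.17, 7.97 and 7.92 in control and 7.66, 7.66, 7.18 and 7.15 with MMS, likewise without overlap (-0.67 ± 0.13, adjusted p = 0.000215). TrpRS-m therefore moved against the cytosolic gene for the same amino acid at this time. Without overlap between the groups at 24 h were 4 cytosolic genes above and 1 below control and 3 mitochondrial genes above and 2 below, against 24.2% of all genes in either direction.

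Arrays of the same number deviated together at 24 h. With the 24 h arrays alone and the number as a block, a fit added after the values were seen, 10 members were higher and 2 lower (15.9% and 17.3% of all genes), among them all 9 called without it. The added calls were AspRS-m (0.42 ± 0.09, adjusted p = 0.000446), GluRS-m (0.25 ± 0.09, adjusted p = 0.0289) and LeuRS-m (0.24 ± 0.09, adjusted p = 0.0397), whose adjusted p without the block was 0.161, 0.206 and 0.137.

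TrpRS was the only member read by more than 1 probe set, and its 3 probe sets differed in size of change. The brightest, 1638511_at, which stands for the gene in all counts, read 11.15, 11.17, 11.25 and 11.17 in control at 24 h and 11.63, 11.67, 11.65 and 11.53 with MMS. Probe set 1635547_a_at read 10.27, 10.29, 10.50 and 10.37 in control and 10.91, 10.91, 10.87 and 10.80 with MMS. Both were without overlap and moved by similar amounts, 0.44 ± 0.09 and 0.52 ± 0.09. The dim probe set 1629619_at, singled out after its values were seen, read 5.34, 5.76, 5.33 and 5.46 in control and 7.91, 7.48, 7.97 and 8.05 with MMS, 2.38 ± 0.17 higher (adjusted p = 6.38e-13).

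In the same dim TrpRS probe set MMS was 1.01 ± 0.17 higher at 8 h (adjusted p = 5.47e-05) and 2.05 ± 0.17 at 72 h (adjusted p = 1.95e-11). Probe set 1638511_at changed by -0.04 ± 0.09 and 0.24 ± 0.09 and was not called at either time. The change of 1635547_a_at was -0.01 ± 0.09 at 8 h, not called, and 0.30 ± 0.09 at 72 h, called higher (adjusted p = 0.00851). In untreated cells 1629619_at was also 1.19 ± 0.17 higher at 8 h than at 0 h (adjusted p = 1.28e-06), across arrays of unlike RNA quality. At 24 h against 0 h it was not called (-0.03 ± 0.17), and at 72 h against 0 h it was higher with overlapping groups (0.46 ± 0.17, adjusted p = 0.0344). Which part of the TrpRS transcripts each probe set reads was not looked up here, and no detection calls were used to set the dim values against background. Taking the mean of the probe sets in place of the brightest raised the change of TrpRS at 24 h to 1.11.

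**Figure D2:**
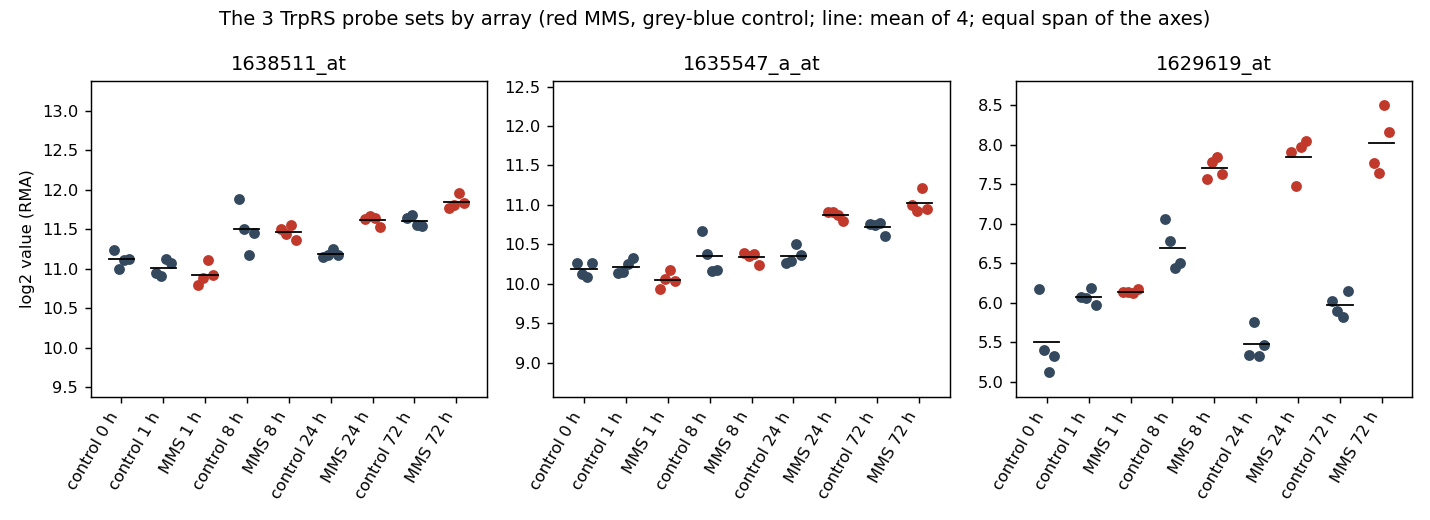
Log2 value (y axis) of the 3 TrpRS probe sets in each of the 36 arrays by group (x axis), MMS in red and control in grey-blue, with the mean of 4 arrays as a line and axes of equal span but different origin. Under MMS at 24 h the dim probe set on the right reads 7.48 to 8.05 against 5.33 to 5.76 in control, a wider step than in the other panels.

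At 72 h of MMS 6 cytosolic and 8 mitochondrial genes were higher and none was lower. The 3′ excess was 0.694 to 0.719 on the MMS arrays of 72 h, the highest outside 8 h, and 0.538 to 0.628 on their controls, and its part in these changes was not tested. ValRS read 9.99, 10.20, 9.88 and 9.86 in control and 10.90, 10.82, 11.11 and 10.93 with MMS. Its groups were more than the whole control range apart, a rise of 0.96 ± 0.13 or 1.94-fold (adjusted p = 4.72e-07). GluRS-m, the mitochondrial glutamate enzyme (probe set 1634404_at), read 5.80, 6.04, 6.43 and 5.82 in control and 6.91, 6.73, 7.05 and 7.04 with MMS, without overlap and 0.91 ± 0.13 or 1.88-fold higher (adjusted p = 1.02e-06).

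ThrRS read 10.98, 11.17, 10.96 and 10.92 in control at 72 h and 11.59, 11.43, 11.80 and 11.65 with MMS. All MMS arrays of ThrRS lay above control, and its rise was 0.61 ± 0.10 (adjusted p = 1.4e-05). PheRS-m read 9.03, 8.93, 9.29 and 9.34 in control and 9.69, 9.67, 9.65 and 9.65 with MMS, also apart, and rose by 0.52 ± 0.10 (adjusted p = 8.55e-05) as at 24 h.

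GluProRS, a single protein with both the glutamate and the proline enzyme, read 10.17, 10.21, 9.98 and 9.92 in control at 72 h and 10.56, 10.57, 10.98 and 10.74 with MMS. Every MMS array of GluProRS was above control (0.64 ± 0.20, adjusted p = 0.0134), but without MMS replicate 3 the call was lost (0.56, adjusted p = 0.0584). SerRS-m read 7.04, 7.34, 7.54 and 7.55 in control and 7.72, 7.54, 7.78 and 7.80 with MMS, so that the groups met at 7.54 to 7.55 (0.34 ± 0.10, adjusted p = 0.0112). Its call was lost without control replicate 1 (adjusted p = 0.0899), with only the 72 h groups in the fit (0.0573) and after a further quantile normalization (0.307).

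ProRS-m read 8.19, 8.12, 8.16 and 8.26 in control at 72 h and 8.55, 8.33, 8.62 and 8.52 with MMS, without overlap (0.32 ± 0.10, adjusted p = 0.0163), and lost its call without MMS replicate 3 (0.0616) or after a further quantile normalization (0.26). The other calls at 72 h were AspRS-m, for aspartate (0.79 ± 0.20), AsnRS-m, for asparagine (0.70 ± 0.16), LeuRS-m, for leucine (0.40 ± 0.11), ArgRS-m (0.33 ± 0.10), IleRS, for isoleucine (0.53 ± 0.16), ArgRS (0.51 ± 0.13) and AlaRS (0.32 ± 0.10). Among those not called, SerRS changed by 0.17 ± 0.09, ValRS-m by 0.08 ± 0.15, LysRS by -0.01 ± 0.08 and TrpRS-m by -0.06 ± 0.13.

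Without overlap at 72 h were 7 cytosolic and 5 mitochondrial genes, all above control, against 28.2% of all genes in either direction. Leaving out MMS replicate 3, the array with the highest mean over the cytosolic genes, left 9 members called, all higher. A further quantile normalization of the arrays left 11 called, all higher, and lowered the mitochondrial median from 0.33 to 0.13. Among all genes 2039 were higher and 1495 lower, and 2228 higher and 1024 lower after centring every array on its median, a setting under which 16 members were higher and 0 lower.

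The MMS effect itself differed between times for some members. From 8 to 24 h it rose for 6 members and fell for 0 (4.96% and 3.02% of all genes), namely PheRS-m (0.69 ± 0.14), GlnRS (0.68 ± 0.14), TyrRS (0.56 ± 0.13), AlaRS (0.49 ± 0.14), TrpRS (0.48 ± 0.13) and ProRS-m (0.47 ± 0.14). Without control 8 h replicate 1 only 3 members were called, and the differences in RNA quality given above lie between these times. TyrRS thus went from a lower level at 8 h to a change of 0.15 ± 0.09, not called, at 24 h.

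From 24 to 72 h the effect rose for 5 members and fell for 0 (9.13% and 4.53% of all genes). TyrRS-m moved most, from a lower level at 24 h to 0.22 ± 0.10, not called, at 72 h, a difference of 0.91 ± 0.14 (adjusted p = 9.98e-06). TyrRS-m read 6.95, 7.15, 7.46 and 7.23 in control at 72 h and 7.39, 7.33, 7.38 and 7.56 with MMS, with overlapping groups. The MMS mean of TyrRS-m was 7.50 at 8 h, 7.31 at 24 h and 7.41 at 72 h, while the control mean came down from 8.32 at 8 h to 7.20 at 72 h. The others were GluRS-m (0.66 ± 0.18), TrpRS-m (0.61 ± 0.19), SerRS-m (0.50 ± 0.15) and ThrRS (0.48 ± 0.14). Without MMS 24 h replicate 4 only 2 members were called, and 3 without MMS 24 h replicate 3, control 72 h replicate 1 or MMS 72 h replicate 3. After a further quantile normalization 2 were higher and 1 lower.

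Untreated cells changed over time as well, and the control arrays at 72 h are shared by this comparison and that with MMS. At 1 h no member differed from 0 h (0.2% of all genes higher and 0.0668% lower, limma, and 0 members at an unadjusted p under 0.05). At 8 h 3 members were higher and 10 lower (16.8% and 16.4%), a comparison across arrays of unlike RNA quality. With only the groups compared in the fit, 1 was higher and 7 lower. At 24 h 0 were higher and 9 lower (4.82% and 10.8%).

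By 72 h of untreated growth 4 members were higher and 17 lower (16.7% and 19.8%). The mitochondrial genes made up 12 of those lower, with a median of -0.79 over the class. All 14 mitochondrial genes passed an unadjusted p under 0.05 in 1 direction or the other, against 42% of all genes. ValRS-m read 7.69, 6.84, 7.12 and 7.23 at 0 h and 5.71, 5.83, 5.94 and 6.10 in control at 72 h, far below and without overlap (-1.33 ± 0.15, adjusted p = 6.44e-09). ArgRS-m fell by 1.26 ± 0.10 (adjusted p = 3.89e-12) and TyrRS-m by 1.17 ± 0.10 (adjusted p = 7.14e-12). GluRS-m, which read 7.30, 6.83, 6.97 and 7.17 at 0 h, was lower by 1.04 ± 0.13 at 72 h (adjusted p = 4.28e-08), so that these 4 passed a 2-fold change.

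AspRS-m was the exception among the mitochondrial genes. It read 9.06, 9.25, 9.57 and 8.57 at 0 h, 10.39, 10.48, 10.20 and 9.79 in control at 72 h and 10.91, 10.64, 11.31 and 11.15 with MMS at 72 h. The control groups of AspRS-m did not overlap, and it was 1.11 ± 0.20 or 2.15-fold higher at 72 h than at 0 h (adjusted p = 2.66e-05). CysRS-m, for cysteine, was not called (-0.21 ± 0.08, adjusted p = 0.0515).

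Of the 16 cytosolic genes 3 were higher in control at 72 h than at 0 h and 5 lower, or 18.8% and 31.2% beside 16.7% and 19.8% of all genes, so that the share higher was near that of all genes. TyrRS read 10.25, 10.03, 10.05 and 10.13 at 0 h and 10.73, 10.87, 10.80 and 10.64 at 72 h, clearly apart (0.65 ± 0.09, adjusted p = 2.43e-07). TrpRS (0.49 ± 0.09) and GlyRS (0.42 ± 0.11) were the others higher. ArgRS fell by 0.96 ± 0.13 (adjusted p = 1.55e-07), AsnRS by 0.60 ± 0.08, ThrRS by 0.53 ± 0.10, GlnRS by 0.31 ± 0.10 and HisRS by 0.28 ± 0.10. The cytosolic median was -0.02 and turned to 0.01 after a further quantile normalization. Groups did not overlap for 3 cytosolic genes above and 5 below 0 h and for 1 mitochondrial gene above and 12 below, against 30.6% of all genes in either direction.

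Set against 0 h, a comparison added after the values were seen, MMS cells at 72 h had 8 members higher and 9 lower. These were 26.7% and 30% of the members, near the 22.2% and 24.5% of all genes. The cytosolic genes were 7 higher and 2 lower (43.8% and 12.5%) and the mitochondrial genes 1 higher and 7 lower (7.14% and 50%). GluRS-m stood at -0.13 ± 0.13 and PheRS-m at -0.15 ± 0.10 against 0 h, neither called, and ThrRS at 0.08 ± 0.10. ValRS was 0.63 ± 0.13 and GluProRS 0.74 ± 0.20 above 0 h, both called. These MMS arrays are the same as in the comparison with control at 72 h.

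As a description over the classes, each gene was set relative to its mean at 0 h and averaged in each array. The mitochondrial mean was -0.71 ± 0.12 (SD, n = 4) in control at 72 h, with arrays from -0.86 to -0.57, and -0.34 ± 0.14 with MMS, from -0.55 to -0.21. No MMS array lay below a control array at 72 h. The cytosolic mean was -0.07 ± 0.10 in control and 0.25 ± 0.13 with MMS, with arrays from -0.16 to 0.07 and from 0.09 to 0.40. At 8 h the mitochondrial mean was -0.21 ± 0.04 in control and -0.38 ± 0.05 with MMS, and at 24 h -0.24 ± 0.03 and -0.23 ± 0.08. The cytosolic mean at 24 h was -0.10 ± 0.10 in control and 0.07 ± 0.15 with MMS, with overlapping arrays from -0.19 to 0.02 and from -0.09 to 0.21. Between arrays of the same number at 24 h, MMS was above control by 0.15, 0.27, 0.14 and 0.11 in the cytosolic mean, while the differences in the mitochondrial mean were 0.09, 0.05, -0.05 and -0.03.

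**Figure D3:**
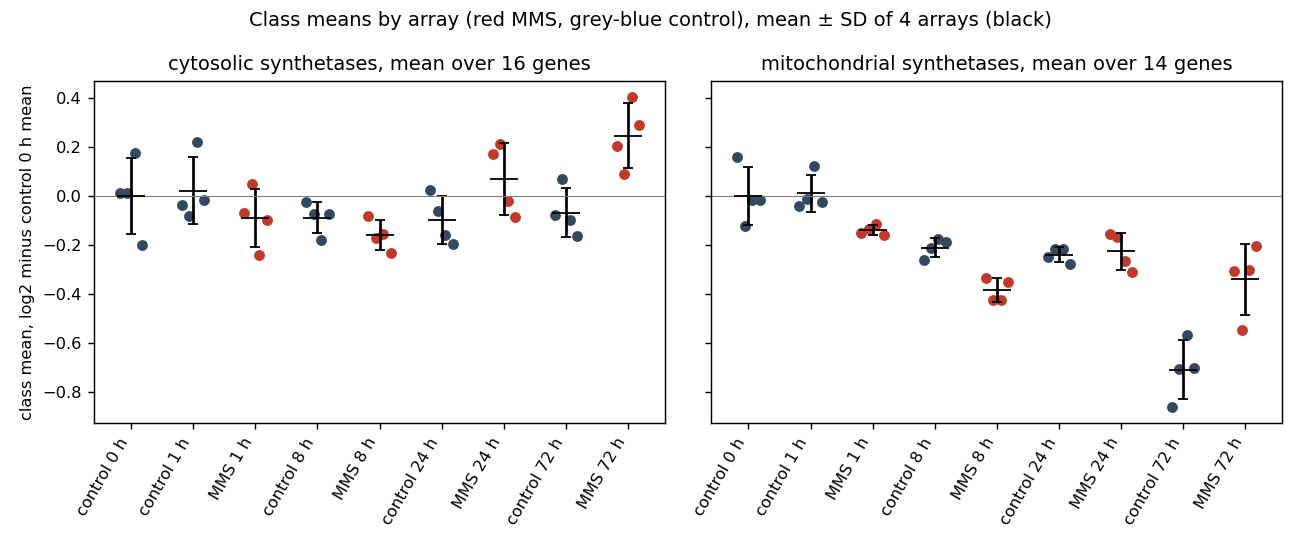
Mean over the 16 cytosolic (left) and 14 mitochondrial (right) genes of the log2 value minus each gene's mean at 0 h (y axis), with a point for each array in each group (x axis, MMS in red and control in grey-blue) and the mean ± SD of 4 arrays in black. The mitochondrial mean in control at 72 h lies between -0.86 and -0.57, below all other groups, and with MMS at 72 h between -0.55 and -0.21.

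For 11 amino acids both a cytosolic and a mitochondrial gene were measured, with GluProRS counted for glutamate and for proline. In untreated cells at 72 h against 0 h the cytosolic gene's change was above the mitochondrial one's in 11 of 11, by a median of 0.72. The gap was widest for tyrosine (1.82), where TyrRS was higher and TyrRS-m lower, and least for cysteine (0.12). Tryptophan was the other amino acid whose genes were called in opposite directions, and for arginine and asparagine both genes were lower. The 11 differences share the same arrays and are given with no test.

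Under MMS at 72 h the cytosolic gene's change was above the mitochondrial one's for 5 amino acids and below it for 6, with a median difference of -0.02. Both genes were higher for glutamate, proline and arginine. The difference was 0.88 for valine, where ValRS was higher and ValRS-m was not called. At 24 h the 1 amino acid with opposite calls was tryptophan, with a difference of 1.11. At 8 h both tyrosine genes, TyrRS and TyrRS-m, were lower.

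**Figure D4:**
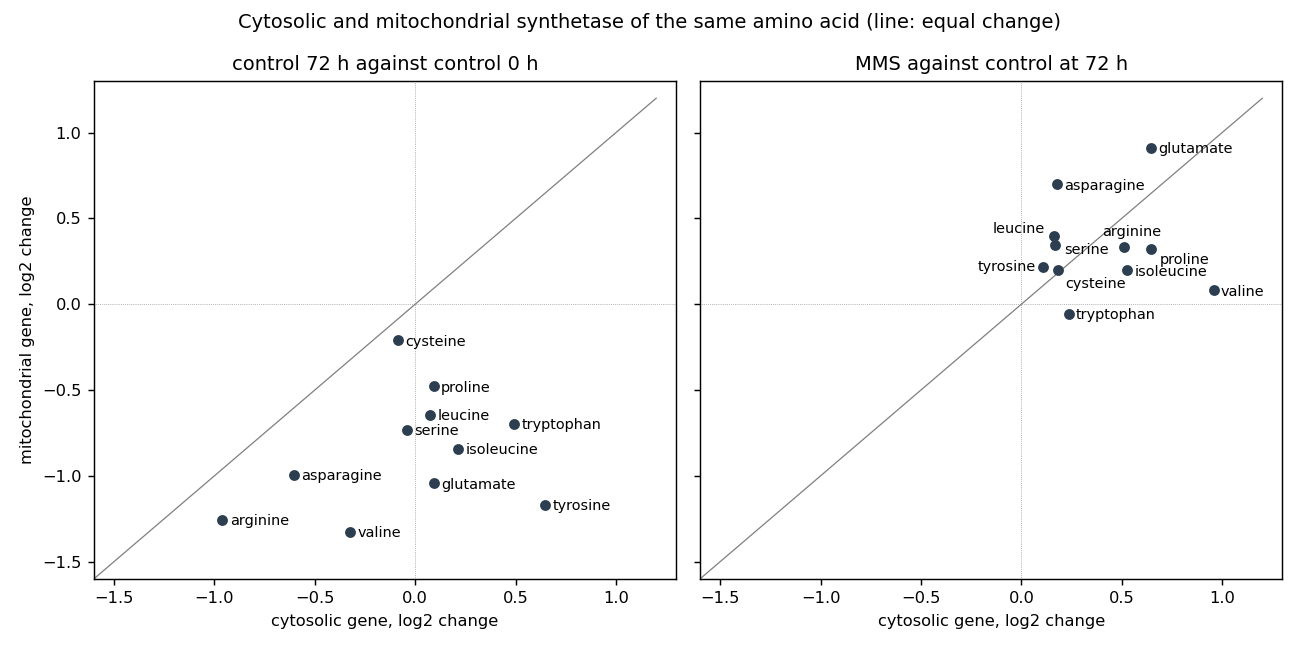
Log2 change of the cytosolic gene (x axis) against that of the mitochondrial gene (y axis) for 11 amino acids, in control at 72 h against 0 h (left) and in MMS against control at 72 h (right), with the line of equal change. On the left all 11 points lie below the line, and on the right 5 lie below and 6 above.

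Synthetases fall into 2 families of unrelated catalytic fold, class I and class II, and GluProRS holds a domain of each. At 72 h of MMS all 5 mitochondrial class II genes (AsnRS-m, AspRS-m, PheRS-m, ProRS-m and SerRS-m) were higher, with a median of 0.52, against 17% of all genes. Of them SerRS-m and ProRS-m lost their calls under the settings given above. Of the 9 mitochondrial class I genes 3 were higher (median 0.21). In untreated cells at 72 h, 19.8% of all genes were lower and 16.7% higher. Of those 9 mitochondrial class I genes 8 were lower with a median of -0.96. Of the 5 mitochondrial class II genes 4 were lower and 1 higher (median -0.67). In the cytosol 3 of 8 class I and 2 of 7 class II genes were higher at 72 h of MMS, with medians of 0.21 and 0.18. The difference between the families was not tested.

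Cytosolic enzymes that belong to the multi-synthetase complex in mammals were 6 of the members (ArgRS, GlnRS, GluProRS, IleRS, LeuRS and LysRS). Of these, 3 were higher and 0 lower at 72 h of MMS (median 0.34), and of the 10 other cytosolic genes 3 were higher and 0 lower (median 0.21), beside 17% higher and 12.5% lower of all genes. At 24 h 1 of 6 and 4 of 10 were higher, beside 10.2%.

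Partners of tRNA charging, a list of 10 measured genes, had 0 higher and 2 lower at 8 h of MMS (8.85% and 11.5% of all genes), 0 and 1 at 24 h (10.2% and 10%), and 0 and 0 at 72 h (17% and 12.5%). Their median changes were -0.27, -0.07 and 0.07, and at 8 h all 10 estimates were below 0. The lower genes at 8 h were alpha-PheRS, a subunit of the cytosolic phenylalanine enzyme (-0.43 ± 0.10, adjusted p = 0.00249), and Slimp, a serine enzyme paralogue of fly mitochondria that binds SerRS-m (-0.36 ± 0.11, adjusted p = 0.0148). At 24 h the lower gene was eEF1gamma, a subunit of the elongation factor complex (-0.21 ± 0.08).

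In untreated cells at 72 h 8 of the 10 partners were lower and 1 higher (19.8% and 16.7% of all genes), with a median of -0.61. Among them were beta-PheRS (-0.89 ± 0.07, adjusted p = 5.12e-12), alpha-PheRS (-0.75 ± 0.10) and GatA (-1.11 ± 0.16), part of the mitochondrial enzyme that turns glutamyl-tRNA into glutaminyl-tRNA. The scaffold genes AIMP1 and AIMP2 were lower by 0.78 ± 0.12 and 0.46 ± 0.12.

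The mitochondrial ribosomal proteins, the other side of translation in that organelle, were 69 measured genes. In control at 72 h against 0 h 60 were lower and 1 higher (median -0.98), beside 19.8% and 16.7% of all genes. Most mitochondrial synthetases were lower in that comparison as well. Under MMS at 72 h, where 12.5% of all genes were lower and 17% higher, 0 mitochondrial synthetases were lower and 8 higher. Of the ribosomal protein genes 20 were lower and 1 higher (median -0.29). The lower ones included mRpL39 (-1.002 ± 0.140, adjusted p = 6.91e-07), mRpS29 (-0.80 ± 0.12) and mRpL38 (-0.53 ± 0.08). At 8 h 13 were lower and 1 higher (11.5% and 8.85% of all genes), and at 24 h 10 and 1 (10% and 10.2%). The difference between these lists was not tested.

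Of 11 mitochondrial translation factors, which include GatA and GatB of the partner list, 2 were higher and 4 lower at 72 h of MMS. These shares were 18.2% and 36.4% beside 17% and 12.5% of all genes, so that the share higher was near that of all genes. The elongation factor mEFTu2, which brings charged tRNA to the mitochondrial ribosome, was lower (-0.72 ± 0.10, adjusted p = 4.63e-07), as was its exchange factor mEFTs (-0.32 ± 0.09, adjusted p = 0.00418), and the initiation factor mIF3 was higher (0.48 ± 0.13, adjusted p = 0.00444). Of 34 cytosolic ribosomal proteins 0 were higher and 1 lower at 72 h, and 1 higher and 3 lower at 8 h (8.85% and 11.5% of all genes). Of 7 cytosolic elongation and termination factors 0 were higher and 1 lower at 72 h, the release factor eRF1 (-0.62 ± 0.07, adjusted p = 1.07e-08).

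**Figure D5:**
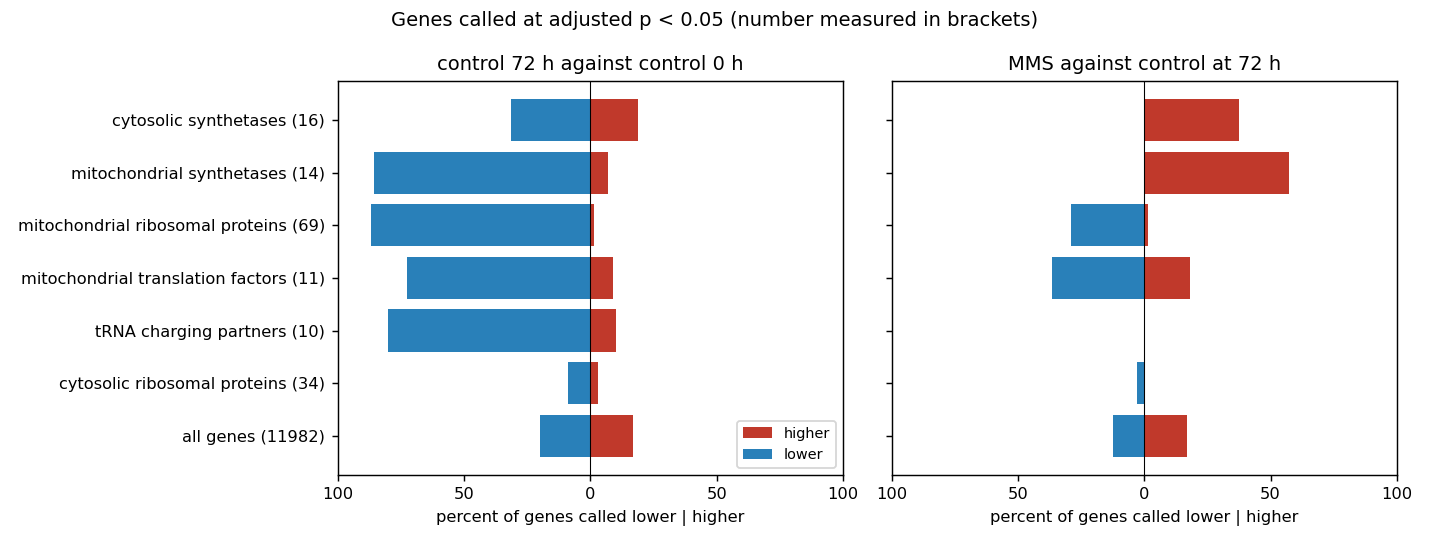
Percent of the genes of each list (y axis, number measured in brackets) called higher (red, to the right) or lower (blue, to the left) at an adjusted p under 0.05, in control at 72 h against 0 h and in MMS against control at 72 h. Mitochondrial synthetases and mitochondrial ribosomal proteins are mostly lower on the left, and on the right 8 of 14 synthetases are higher whereas 20 of 69 ribosomal protein genes are lower.

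Genes of the ATF4 and amino acid response were a list of 28 measured genes. Under MMS 9 were higher and 3 lower at 8 h (8.85% and 11.5% of all genes) and 11 and 2 at 24 h (10.2% and 10%). At 72 h 15 were higher and 2 lower (17% and 12.5%), with changes from -0.63 to 1.90 over the list. Higher at 72 h were Gs2, a glutamine synthetase (1.898 ± 0.109, adjusted p = 1.6e-15), trbl, the pseudokinase tribbles (1.23 ± 0.10, adjusted p = 1.85e-11), JhI-21, an amino acid transporter (0.60 ± 0.08, adjusted p = 2.76e-07), and crc itself, given since it encodes ATF4 (0.30 ± 0.08, adjusted p = 0.00312). The list was written with earlier results of these data known, and genes such as Gs2 had already been seen to change. Of the hemocyte markers 2 were higher and 7 lower at 24 h of MMS (10.2% and 10% of all genes) and 3 and 5 at 72 h (17% and 12.5%). In control at 72 h against 0 h 7 of the 15 were higher and 1 lower (16.7% and 19.8%), 6 of the higher ones by over 2-fold. Of the 8 germline markers 2 were lower at 8 h of MMS (11.5% of all genes), 4 at 24 h (10%) and 1 at 72 h (12.5%), with 1 higher at 72 h (17%). In control at 72 h 3 germline markers were lower and 1 higher (19.8% and 16.7%). Of the 8 neuron markers 3 were higher at 8 h (8.85% of all genes), 2 at 24 h (10.2%) and 3 at 72 h (17%) of MMS. In control at 72 h 1 was higher (16.7%), and 0 were lower in these comparisons. Of the 6 muscle markers 1 was higher at 24 h of MMS (10.2% of all genes) and 1 lower at 72 h (12.5%). Some of these counts, such as those of germline markers at 72 h of MMS (12.5% each way), were near the share of all genes. The part of these cell type markers in the changes of the synthetases was not tested.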

How the data were processed

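The values deposited by the authors are log2 intensities, 1 for each probe set on each of 36 arrays, made with RMA per the submitters' processing notes (version not given in the sources used here). Such values are relative and do not show a shift in the RNA content of the whole cell. Depth does not apply to arrays, and precision is limited by their number. Groups and replicate numbers came from the labels, and 0 columns were left without a sample. The series text speaks of independently grown cultures. It does not say whether a number marks 1 culture at all times. Deviations of same-numbered control and MMS arrays from their group means correlated at 0.461, 0.356, 0.529 and 0.480 at 24 h, and not in all pairs at other times. At 24 h the numbers were taken as pairs only in the added fit and in the class means by number. The main fit had no block at any time.

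Of 18952 probe sets, 13647 carried 1 gene in the platform annotation and 402 several. Each gene was read by its brightest probe set on average, and 11982 genes were tested. The 30 members had 32 such probe sets, and IleRS, ValRS and ThrRS are read by sets of the _s_at type, which can match other transcripts. A group mean was fitted over all arrays with limma 3.58.1 in R 4.3.3 (27 residual and 5.37 prior degrees of freedom), checked on simulated data. The permutation analysis named in the study's methods was not used. Array values are given for the 12 members with the smallest adjusted p under MMS and the other gene of their amino acid, and up to 3 genes per comparison were named from other lists (10 in all). Genes given for untreated cells and AspRS-m were chosen after their values were seen. Members and lists were chosen with earlier results of these data known. Alternatives covered the probe set rule, scaling, a mean log2 of at least 5, the variance prior, the groups fitted, a replicate block, an adjusted p of 0.01 and each array left out.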

Additional observations from a re-analysis of the deposited data

Results flagged for a closer look

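In 153 groups of 4 arrays, an array that stood apart from its group by Dixon's criterion was found 2 times, where chance gives about 5% of groups. GluRS-m read 7.01 in MMS 24 h replicate 2, the highest of a narrow group that otherwise lay at 6.94 to 6.95. TyrRS read 10.17 in control 24 h replicate 3, where the other arrays were at 10.05.

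The MMS effect differed between 8 and 24 h, by the interaction term in limma, for AlaRS (0.49), GlnRS (0.68), PheRS-m (0.69), ProRS-m (0.47), TrpRS (0.48) and TyrRS (0.56). Between 24 and 72 h it differed for GluRS-m (0.66), SerRS-m (0.50), ThrRS (0.48), TrpRS-m (0.61) and TyrRS-m (0.91). In data outside the gene-level values, the dim TrpRS probe set 1629619_at was above control by 1.01 at 8 h, 2.38 at 24 h and 2.05 at 72 h, and the other TrpRS probe set not taken for the gene, 1635547_a_at, by 0.52 at 24 h and 0.30 at 72 h.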

How the results depend on the processing

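Counts of members called stayed within 1.5 times the value reported under the other settings, except as follows. At an adjusted p under 0.01, 8 members were called at 72 h of MMS (14 reported), 3 for the change of effect from 8 to 24 h (6) and 1 from 24 to 72 h (5). A further quantile normalization gave 3 from 24 to 72 h, and a mitochondrial median of 0.13 at 72 h of MMS. With only the groups compared, 8 were called in control at 8 h against 0 h (13). The cause was not tested in these cases, beyond fewer genes passing a stricter threshold. Leaving out the 8 h arrays gave 15 at 72 h of MMS and 9 at 24 h. No direction of a called result was reversed.

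Leaving out 1 array at a time, counts of members called ran from 6 to 11 at 8 h of MMS, 9 to 10 at 24 h, 9 to 16 at 72 h, 3 to 9 for the effect from 8 to 24 h, 2 to 7 from 24 to 72 h, and 10 to 13, 8 to 11 and 19 to 23 in control at 8, 24 and 72 h against 0 h, with 17 to 20 for MMS at 72 h against 0 h. Mitochondrial medians ran from -0.19 to -0.10 at 8 h, 0.26 to 0.39 at 72 h and -0.85 to -0.67 in control at 72 h against 0 h, where the cytosolic median ran from -0.08 to 0.02.

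Same-numbered control and MMS arrays deviated together in 7 of 16 pairs (correlation over 0.1, range -0.44 to 0.53), among them all 4 at 24 h. Of 36 arrays 14 correlated best with their own number. The numbers were therefore taken as pairs at 24 h only, beside the main fit, which had no block. With the replicate number as a block 9, 9 and 14 members were called at 8, 24 and 72 h of MMS and 22 in control at 72 h against 0 h, and with the 24 h arrays alone in a blocked fit 12 at 24 h. Signal over background could not be read from these normalised values, which limits dim probe sets most.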
